A study of Mus musculus with 6 samples.

Results

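The genes of the NF-kB subunits and their inhibitors were examined in maps of H3K4me3, the trimethylation of lysine 4 of histone H3, which marks promoters that are active or held ready for use. The 10 genes, of 21938 protein-coding genes on the nuclear chromosomes, were taken by name: the subunit genes Nfkb1, Nfkb2, Rel, Rela and Relb, and the inhibitor or cofactor genes Nfkbia, Nfkbie, Nfkbiz, Tnfaip3 and Bcl3. H3K4me3 ChIP-seq with a Millipore antibody was performed in 2 untreated mouse lines. Scid.adh.2C2 is a T-cell progenitor line at a DN3-like stage, subcloned from Scid.adh and of tumour origin in CB17-Prkdc<scid> mice. The other, here called the Abelson line, is an Abelson-transformed B-cell progenitor line, described as pre-B in the study's methods. Each line had 2 ChIP libraries and 1 input library and gave 1 peak list that combines both replicates, with 15513 peaks in Scid.adh.2C2 and 19604 in the Abelson line. Each line is 1 transformed clone or line grown in its own medium, so that lineage, transformation and culture cannot be told apart. The lists hold no read counts and no value per replicate. The depth is therefore unknown, no spread can be given for any value, and no difference between the lines below was tested.

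NF-kB is a family of dimeric transcription factors, named after a factor in B cells that binds the enhancer of the kappa light chain gene. In resting cells the dimers are held in the cytoplasm by IkB proteins, and signals from receptors lead through the IKK kinases to the degradation of IkB and the entry of the dimers into the nucleus. Several of the inhibitor genes are themselves targets of NF-kB, which makes the pathway self-limiting, and the pathway serves survival and activation in both B and T lymphocytes.

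The cell type labels were checked against lists of marker genes. All 10 T-lineage markers had a peak within 2500 bp of a transcription start site (TSS) in Scid.adh.2C2, and 4 of them (Cd3d, Tcf7, Lck and Zap70) also did in the Abelson line. Of 10 B-lineage markers, 9 had one in the Abelson line and 3 in Scid.adh.2C2 (Rag1, Vpreb1 and Ighm), Rag1 being the one without a peak in the Abelson line. None of 5 myeloid markers had a promoter peak in either line.

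Promoter sequences were available from RefSeq (GRCm38.p6, 250 bases before to 50 after the start) for 7 of the 10 genes, in 10 windows of 300 bases, and not for Nfkb1, Relb and Nfkbiz. Of these 7 genes, 6 held a match to the 10-base kB consensus, the motif bound by NF-kB dimers, on either strand (85.7%), against 5.72% of all 16493 protein-coding genes with a window and 5.89% of the 7340 of them marked in both lines. Rela was the gene with no match. The sequences below are shown because their kB matches, in capitals, can be placed against the H3K4me3 peaks described afterwards, with Rela as the contrast. They read 5′ to 3′ on the strand of the gene.
Nfkb2, chr19:46304487-46304786, plus strand: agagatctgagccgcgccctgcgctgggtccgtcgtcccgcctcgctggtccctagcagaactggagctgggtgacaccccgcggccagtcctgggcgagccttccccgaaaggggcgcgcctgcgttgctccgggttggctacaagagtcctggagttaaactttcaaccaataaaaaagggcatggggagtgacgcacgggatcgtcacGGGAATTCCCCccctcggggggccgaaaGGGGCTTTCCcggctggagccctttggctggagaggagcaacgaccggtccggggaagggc
Rel, chr11:23770920-23771219, minus strand: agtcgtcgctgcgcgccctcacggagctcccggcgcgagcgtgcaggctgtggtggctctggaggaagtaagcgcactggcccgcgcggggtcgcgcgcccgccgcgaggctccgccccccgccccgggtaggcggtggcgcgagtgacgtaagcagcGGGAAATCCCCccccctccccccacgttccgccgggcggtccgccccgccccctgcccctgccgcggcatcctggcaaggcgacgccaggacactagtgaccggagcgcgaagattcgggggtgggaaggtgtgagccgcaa
Rela, chr19:5637291-5637590, plus strand: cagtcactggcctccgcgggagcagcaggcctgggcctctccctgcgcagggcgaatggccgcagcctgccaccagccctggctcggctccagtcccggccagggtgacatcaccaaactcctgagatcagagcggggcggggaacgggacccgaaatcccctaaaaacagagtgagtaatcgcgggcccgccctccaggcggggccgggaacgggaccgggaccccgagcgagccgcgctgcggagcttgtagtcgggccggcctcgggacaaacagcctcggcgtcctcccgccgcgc
Nfkbia, chr12:55492598-55492897, minus strand: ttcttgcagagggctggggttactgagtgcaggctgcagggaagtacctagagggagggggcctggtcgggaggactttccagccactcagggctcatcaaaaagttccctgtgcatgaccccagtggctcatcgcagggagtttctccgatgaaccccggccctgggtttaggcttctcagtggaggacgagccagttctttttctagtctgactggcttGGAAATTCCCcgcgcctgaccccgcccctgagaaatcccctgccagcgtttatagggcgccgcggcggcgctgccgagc
Nfkbie, chr17:45555450-45555749, plus strand: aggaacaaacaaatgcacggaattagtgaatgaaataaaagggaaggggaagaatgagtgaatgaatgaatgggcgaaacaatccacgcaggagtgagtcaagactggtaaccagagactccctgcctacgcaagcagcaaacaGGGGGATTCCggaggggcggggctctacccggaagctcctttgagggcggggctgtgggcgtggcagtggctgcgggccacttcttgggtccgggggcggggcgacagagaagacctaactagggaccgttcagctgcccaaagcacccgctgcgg
Tnfaip3, chr10:19015361-19015660, minus strand: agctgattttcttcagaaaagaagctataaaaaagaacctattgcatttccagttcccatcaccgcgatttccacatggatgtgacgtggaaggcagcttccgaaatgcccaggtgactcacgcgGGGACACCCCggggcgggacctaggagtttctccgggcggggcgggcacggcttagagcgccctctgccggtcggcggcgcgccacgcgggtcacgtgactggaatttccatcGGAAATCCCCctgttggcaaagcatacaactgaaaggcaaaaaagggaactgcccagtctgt
Bcl3, chr7:19822706-19823005, minus strand: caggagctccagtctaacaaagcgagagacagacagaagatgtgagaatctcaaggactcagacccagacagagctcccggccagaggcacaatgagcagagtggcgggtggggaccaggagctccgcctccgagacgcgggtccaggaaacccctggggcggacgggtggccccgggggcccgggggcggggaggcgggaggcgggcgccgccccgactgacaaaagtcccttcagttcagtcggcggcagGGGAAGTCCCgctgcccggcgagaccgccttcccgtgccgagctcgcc

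The matches lay near the start in most of these windows. In Nfkb2 they covered positions -39 to -29 and -11 to -2, counted from +1 at the RefSeq start. In Rel they covered -92 to -82, in Nfkbia -29 to -20, in Nfkbie -106 to -97, in Tnfaip3 -125 to -116 and -12 to -3, and in Bcl3 +3 to +12. In all, 12 distinct matches, overlapping ones counted separately, were found in the windows of the 6 genes, including 2 in the further Nfkb2 windows. A total of 11 lay wholly inside an H3K4me3 peak in Scid.adh.2C2 and 10 in the Abelson line. The windows themselves lay mostly in peaks, so that these counts are not particular to the matches. The match outside any peak in both lines was that of Bcl3, and the Tnfaip3 match at -12 to -3 lay in a peak in Scid.adh.2C2 but in a gap between peaks in the Abelson line. Of the 10 windows, 4 held at least 2 matches, against 0.651% of 20118 windows of protein-coding genes. The windows were mostly rich in CpG, with 7 of 10 at an observed-to-expected CpG ratio of 0.6 or more, against 49.1% of all windows, and 1 of 10 (Tnfaip3) held TATAAA on the gene strand, against 7.95%. A match is a stretch of letters and says nothing of occupancy in these cells.

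All 10 genes had H3K4me3 at a promoter in both lines, and none in 1 line only, a gene being marked where a peak overlapped the 2500 bp either side of any of its annotated TSSs (GENCODE vM21). Of all protein-coding genes, 45.5% were marked in this way in Scid.adh.2C2, 48.2% in the Abelson line and 42.2% in both, while 3.28% had the mark solely in Scid.adh.2C2 and 5.97% solely in the Abelson line. The 10 genes had 14 promoter peaks in Scid.adh.2C2, 7.89- to 38.7-fold enriched over background, and 16 in the Abelson line, 4.80- to 30.9-fold enriched. In each list 14 of these peaks had the highest score for reproducibility between the replicates (1000). That score was common. With only such peaks, 9756 of the 9980 marked protein-coding genes stayed marked in Scid.adh.2C2 and 10402 of the 10570 in the Abelson line. None of the peaks reached the window of another protein-coding gene. Together the genes have 50 annotated TSSs, of which 34 lay in a peak in Scid.adh.2C2 and 33 in the Abelson line. The same share over the TSSs of all marked genes was not computed.

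**Figure D1:**
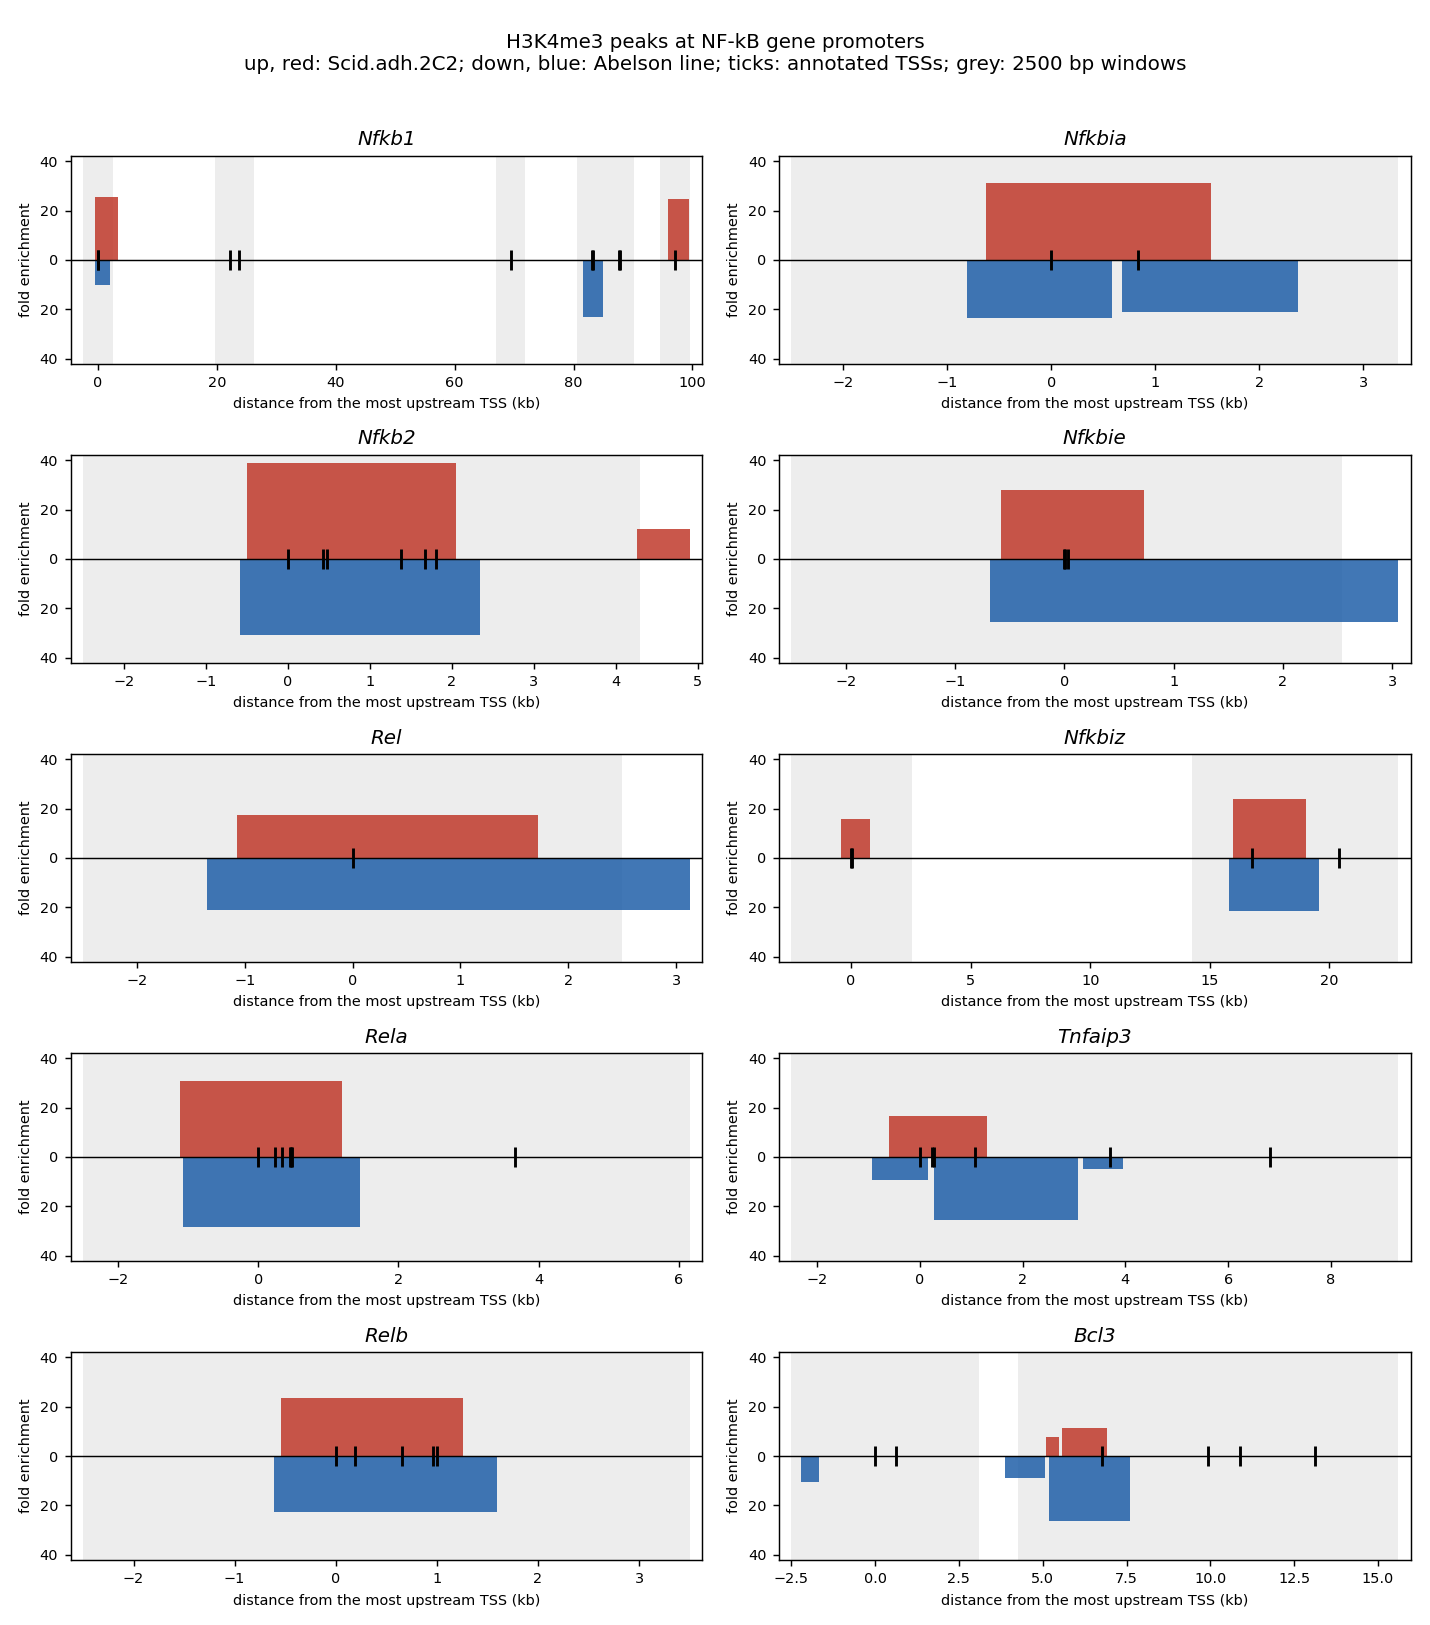
H3K4me3 peaks at the promoters of the 10 genes, drawn as boxes from start to end (x axis, kb from the most upstream TSS in the direction of transcription) with the fold enrichment over background as height (y axis), Scid.adh.2C2 upwards in red and the Abelson line downwards in blue; ticks are annotated TSSs and grey shading the 2500 bp windows. Nfkb1, Nfkbiz and Tnfaip3 show boxes at partly different TSSs in the 2 lines, Bcl3 shows boxes around 1 internal TSS in both and 1 upstream of the gene in the Abelson line, and the Nfkbie box runs from -581 to +731 bp in Scid.adh.2C2 and from -685 to +3056 bp in the Abelson line.

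Fold enrichments depend on the library and its input, so that they were ranked only within a list. The percentile of a gene is the share of the marked protein-coding genes of that list whose highest promoter peak is lower. In Scid.adh.2C2 the order was Nfkb2 (94.7), Nfkbia (71.8), Rela (68.9), Nfkbie (53.2), Nfkb1 (42.1), Nfkbiz (34.2), Relb (32.8), Rel (12.3), Tnfaip3 (10.9) and Bcl3 (4.07), with a median percentile of 38.2. In the Abelson line it was Nfkb2 (95.6), Rela (88.8), Bcl3 (79.4), Tnfaip3 (76.4), Nfkbie (75.5), Nfkbia (62.8), Nfkb1 (59.2), Relb (55.8), Nfkbiz (48.6) and Rel (45.04), with a median of 69.2. Nfkb2 thus led both lists, and Rel, Tnfaip3 and Bcl3, the lowest 3 in Scid.adh.2C2, were spread over the order in the Abelson line. The percentile was higher in the Abelson line for 9 of the 10 genes, with Nfkbia as the exception, against 50.5% of all genes marked in both lines. The count includes genes with several promoters. With the most upstream TSS alone, the Nfkb1 difference turned to -38.9 points, and Bcl3 in Scid.adh.2C2 and Nfkbiz in the Abelson line had no peak. The median difference (Abelson line minus Scid.adh.2C2) was 21.1 percentile points, against 0.313 over all these genes. A gap of 25 points or more, a threshold chosen after the percentiles were seen, was present for 3 of 10 genes towards the Abelson line (Rel, Tnfaip3 and Bcl3) against 22.8% of all genes, and for 0 of 10 towards Scid.adh.2C2 against 21.3%. The count of 3 is thus near the background at this threshold. The ranks of all genes related only loosely between the lines (Pearson r = 0.28 across 9261 genes, which are not independent), so that gaps of this size were common.

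**Figure D2:**
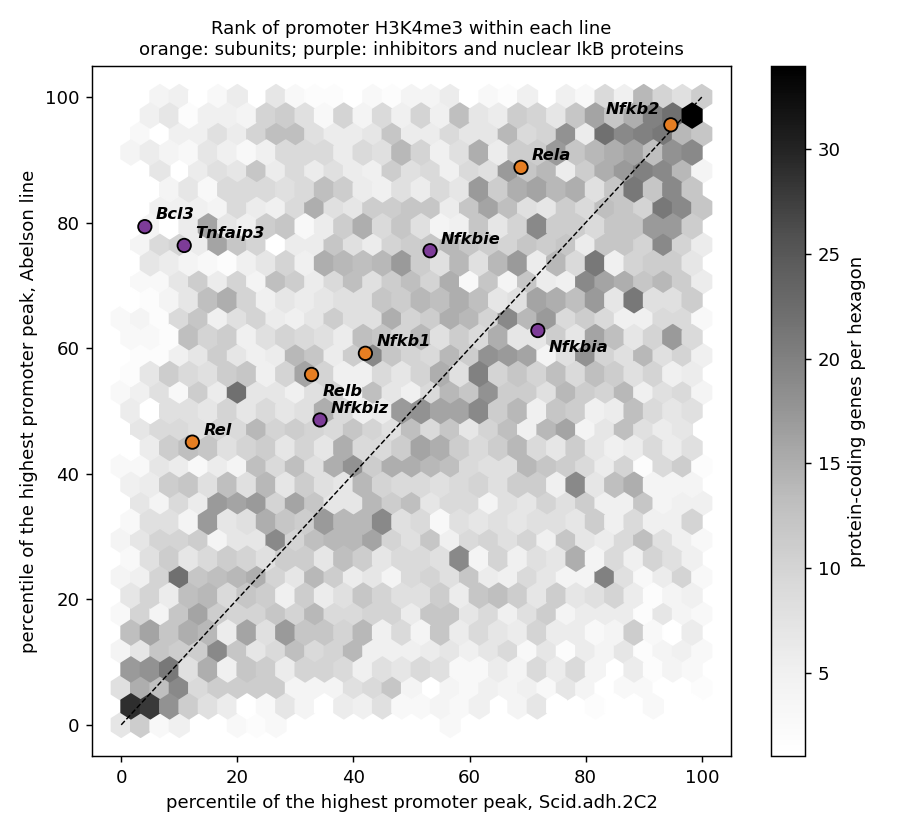
Percentile of the highest promoter peak in Scid.adh.2C2 (x axis) against the Abelson line (y axis), with subunit genes in orange, inhibitor and nuclear IkB genes in purple, and all protein-coding genes marked in both lines as grey hexagons shaded by number. All genes but Nfkbia lie above the dashed line of equal percentiles, Bcl3 (4.07 against 79.4) and Tnfaip3 (10.9 against 76.4) farthest from it.

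The extent of the mark was measured as the base pairs of a gene's promoter windows that peaks cover. The median over the 10 genes was 2241.5 bp in Scid.adh.2C2 and 3494.5 bp in the Abelson line, against 2294 and 2638.5 bp over all marked genes. The covered length was longer in the Abelson line for 8 of 10 genes, against 74% of all genes marked in both lines, which is near the background. It was at least 1.5 times longer in the Abelson line for 3 of 10 genes (Nfkbie, Tnfaip3 and Bcl3), against 15% of all genes, and for 0 of 10 in Scid.adh.2C2, against 3.05%. The median ratio was 1.30, against 1.11. All 3 genes past 1.5 were inhibitors or cofactors, but this split depended on the settings. The subunit genes Nfkb1 (ratio 1.98 with TSSs of protein-coding transcripts only) and Rel (1.61 within windows of 5000 bp) also passed it, and Nfkbie (1.31 within windows of 1000 bp) and Tnfaip3 (1.47 with peaks of at least 10-fold enrichment) did not.

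**Figure D3:**
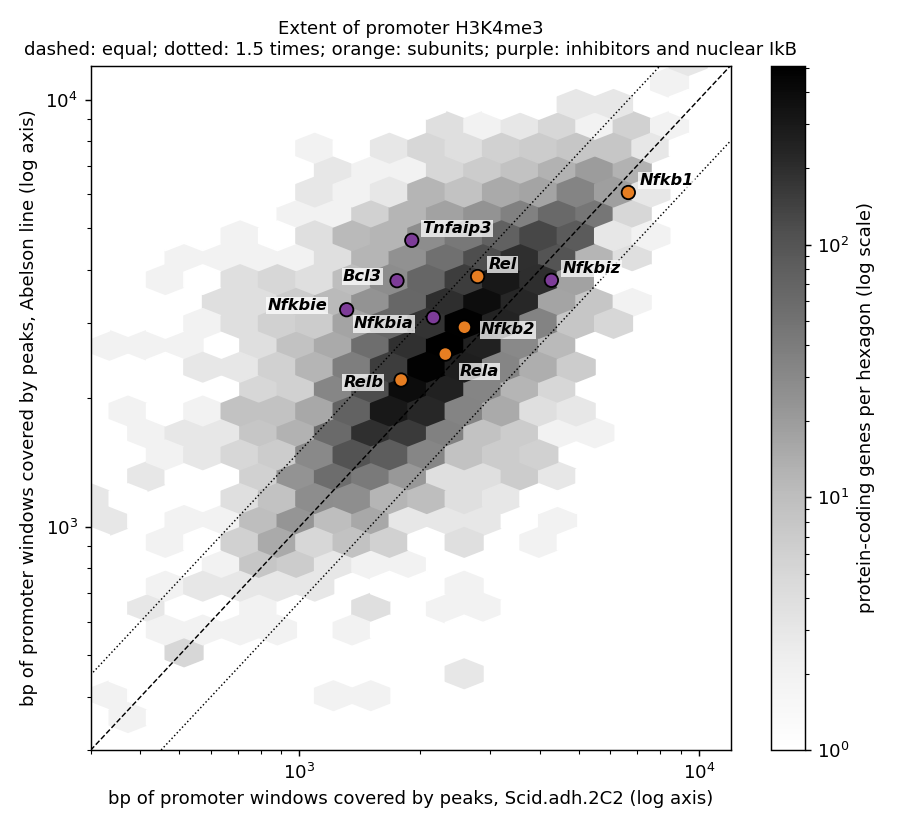
Base pairs of the promoter windows covered by H3K4me3 peaks in Scid.adh.2C2 (x axis) and the Abelson line (y axis), both on log axes, with the 10 genes as points (orange subunits, purple inhibitors and nuclear IkB genes) over all protein-coding genes marked in both lines as hexagons. Nfkbie, Tnfaip3 and Bcl3 lie above the upper dotted line (a ratio of 1.5), and no point lies under the lower one.

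Among the subunits, Nfkb2 (ENSMUSG00000025225, chr19:46304320-46312385, plus strand) encodes p100, the precursor of p52, which acts with RelB in the alternative pathway. Its main peak was 38.7-fold enriched in Scid.adh.2C2, rank 438 of that list, and 30.9-fold enriched in the Abelson line, rank 390. It held all 6 annotated TSSs in both lines and reached from -496 to +2055 bp of the most upstream one in Scid.adh.2C2 and from -585 to +2346 bp in the Abelson line. The peak thus had nearly the same place and rank in both lines. It also reached the promoter window of AC114539.1, a gene that is not protein-coding. The mark has no strand, so that the parts of the 2 genes cannot be told apart. In the Abelson line the peak had a reproducibility score of 899, so that Nfkb2 had no promoter peak when only scores of 1000 were used. A second peak of 643 bp, 11.98-fold enriched, lay inside the gene in Scid.adh.2C2 from +4265 bp and had no TSS.

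Rela (ENSMUSG00000024927, chr19:5637483-5648130, plus strand) encodes p65, the main activating subunit of the canonical pathway. It had 1 promoter peak in each line, 30.8-fold enriched over 2319 bp in Scid.adh.2C2 and 28.3-fold over 2537 bp in the Abelson line. Both peaks held 6 of the 7 annotated TSSs, leaving out the start of a retained-intron transcript. Relb (ENSMUSG00000002983, chr7:19606217-19629438, minus strand), which encodes the partner of p52, likewise had 1 peak in each line over all 5 TSSs. It was 23.5-fold enriched over 1797 bp in Scid.adh.2C2 and 22.6-fold over 2206 bp in the Abelson line. The covered length differed little between the lines at Rela (ratio 1.09) and Relb (1.23), both near the median of 1.11 over all genes.

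Rel (ENSMUSG00000020275, chr11:23736847-23770970, minus strand) encodes c-Rel, the subunit most typical of lymphocytes. Its single annotated TSS lay in 1 peak in each line, 17.2-fold enriched in Scid.adh.2C2 and 21.0-fold in the Abelson line. The peak reached from -1069 to +1723 bp (2793 bp) in Scid.adh.2C2 and from -1352 to +3130 bp (4483 bp) in the Abelson line. The added length in the Abelson line thus lay mainly downstream of the start. Within the windows the covered length was 2793 and 3853 bp, a ratio of 1.38, and with the full width of the peak it was 1.61. By −log10 q in place of fold enrichment the rank gap of Rel was 12.6 points instead of 32.8.

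Nfkb1 (ENSMUSG00000028163, chr3:135584655-135691547, minus strand) encodes p105, which is processed to p50. It has 10 annotated TSSs spread over 97106 bp, and each line had a peak at the upstream promoter and 1 far inside the gene. At the upstream promoter the peak was 25.6-fold enriched and 4007 bp wide in Scid.adh.2C2 (percentile 42.1), and 10.3-fold enriched and 2645 bp wide in the Abelson line (percentile 3.62). The summit was at the same base in both lines, 959 bp downstream of the first TSS. The internal peaks lay at different places. In Scid.adh.2C2 a 24.6-fold peak of 3595 bp held the TSS of a noncoding transcript 97106 bp downstream. In the Abelson line a 23.0-fold peak of 3414 bp held the TSS of a protein-coding transcript 83277 bp downstream and that of a retained-intron transcript 83064 bp downstream. Neither internal peak had a promoter peak of the other line over its TSSs. The highest Nfkb1 peak was therefore the upstream one in Scid.adh.2C2 and the internal one in the Abelson line, and with the most upstream TSS alone the percentile difference turned from 17.1 to -38.9 points. With the TSSs of protein-coding transcripts alone, which leave out the internal Scid.adh.2C2 peak, the ratio of covered length went from 0.910 to 1.98.

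Among the inhibitors, Nfkbia (ENSMUSG00000021025, chr12:55489410-55492647, minus strand) encodes IkBα, the classical inhibitor that NF-kB itself induces. In Scid.adh.2C2 a single peak of 2164 bp, 31.3-fold enriched, held both TSSs. The Abelson line had 2 peaks, 23.6-fold enriched over 1395 bp at the protein-coding start and 21.2-fold over 1694 bp downstream, with 101 bp between them. The covered length was 3089 bp, 1.43 times that in Scid.adh.2C2, although the highest peak alone was shorter (ratio 0.645). Nfkbia was also the 1 gene with a lower percentile in the Abelson line, a difference of -8.95 points. The RefSeq promoter shown above, kB match included, lay wholly within a peak in both lines.

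Nfkbie (ENSMUSG00000023947, chr17:45555703-45563169, plus strand) encodes IkBε, a further cytoplasmic inhibitor. All 3 TSSs, which lie within 36 bp, were inside 1 peak in each line. That peak was 27.8-fold enriched and 1313 bp wide in Scid.adh.2C2, and 25.6-fold enriched and 3742 bp wide in the Abelson line. The upstream ends differed little (-581 and -685 bp), so that the added length lay over the gene body, up to +3056 bp against +731 bp. The ratio of covered length was 2.45, the highest of the 10 genes, and was 1.31 within windows of 1000 bp.

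Tnfaip3 (ENSMUSG00000019850, chr10:19000910-19015657, minus strand) encodes A20, a ubiquitin-editing enzyme that ends NF-kB signalling. In Scid.adh.2C2 it had 1 peak of 1911 bp, 16.7-fold enriched, from -608 to +1302 bp, with 4 of the 6 TSSs. In the Abelson line there were 3 peaks. The middle one, 25.7-fold enriched over 2812 bp, reached from +276 to +3087 bp, the upstream one was 9.40-fold enriched over 1092 bp, and the downstream one 4.80-fold enriched over 778 bp. The gaps between them were only 118 and 87 bp, and the wider gap held the protein-coding TSS at 19015410, which is the RefSeq start, and the kB match next to it. The downstream peak reached the protein-coding TSS at 19011963, whose RefSeq window was covered over all 300 bp in the Abelson line and over 0 bp in Scid.adh.2C2. Scid.adh.2C2 thus had a percentile of 10.9 and a covered length of 1911 bp at Tnfaip3, against 76.4 and 4682 bp in the Abelson line, a ratio of 2.45. With peaks of at least 10-fold enrichment, which leave only the middle one, the ratio was 1.47.

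Of the nuclear IkB proteins, which act as cofactors in the nucleus, Nfkbiz (ENSMUSG00000035356, chr16:55811375-55838899, minus strand) encodes IkBζ. Its 2 upstream TSSs lay in a 16.0-fold peak of 1214 bp in Scid.adh.2C2 and in no peak in the Abelson line. An internal protein-coding TSS, 16761 bp downstream, lay in a peak in both lines, 23.8-fold enriched over 3060 bp in Scid.adh.2C2 and 21.5-fold over 3775 bp in the Abelson line. The lines thus differed in which Nfkbiz promoters had a peak, with 3 of 4 TSSs in a peak in Scid.adh.2C2 and 1 of 4 in the Abelson line.

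Bcl3 (ENSMUSG00000053175, chr7:19808462-19822770, minus strand) encodes a cofactor of p50 and p52 homodimers. The most upstream TSS, that of a protein-coding transcript at 19822770, lay in no peak in either line, and neither did the RefSeq promoter shown above. The peaks within its windows lay instead around the internal TSS of a noncoding transcript 6774 bp downstream. Peaks there also reached the promoter window of the gene Gm16174. There Scid.adh.2C2 had peaks 11.5-fold enriched over 1362 bp and 7.89-fold over 393 bp, and the Abelson line had peaks 26.3-fold enriched over 2424 bp and 8.94-fold over 1202 bp. Only the Abelson line had a further peak upstream of the gene, 10.3-fold enriched over 551 bp, from -2218 to -1668 bp. The rank gap of 75.3 points, the widest of the 10 genes, therefore describes an internal region whose peaks also reach the window of Gm16174. The ratio of 2.15 in covered length also counts the 551 bp of the upstream peak. With the TSSs of protein-coding transcripts alone, Bcl3 had no promoter peak in Scid.adh.2C2.

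Peaks away from any annotated promoter were counted within each gene and 50000 bp either side. The 10 genes had 5 of these in Scid.adh.2C2 and 16 in the Abelson line, or 0.5 and 1.6 per gene, against 0.448 and 0.792 per gene over all protein-coding genes marked in both lines. More of them were present in the Abelson line for 7 of 10 genes, against 29.3% of all genes, and in Scid.adh.2C2 for 1 of 10 (Rela), against 10.7%. Nfkbia had the most, 2 in Scid.adh.2C2 and 5 in the Abelson line, all downstream of the gene, and the 21.0-fold peak of 2717 bp with its summit 27169 bp past the start in Scid.adh.2C2 had a partner in the Abelson line (11.4-fold, 1939 bp). The other Scid.adh.2C2 peak of Nfkbia, 11.5-fold enriched, overlapped 2 separate Abelson peaks, 6.85- and 9.92-fold enriched. A region split into several peaks thus raises the count. At Nfkb1, the Abelson line had 2 closely neighbouring peaks inside the gene, 11.1- and 9.28-fold enriched, and at Relb 1 inside the gene, 16.6-fold enriched. At Tnfaip3 a 17.8-fold peak of 1575 bp lay at -27914 bp in the Abelson line, while Scid.adh.2C2 had a 9.80-fold peak at -46879 bp. In all, 13 of the 16 peaks in the Abelson line and 3 of the 5 in Scid.adh.2C2 had no overlapping peak in the other line. The same share over all peaks outside promoters was not computed, so that it is unknown whether these counts are unusual. The Abelson list is longer, and when both lists were cut to the same number of peaks the count was 4 of 10 genes instead of 7, against 16.8% of all genes. Which gene such a peak acts on was not measured.

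The other genes of the pathway, 61 in a list of receptors, adaptors, kinases, further inhibitors and targets, were examined in the same way. A promoter peak was present for 44 of them in Scid.adh.2C2 (72.1%) and 48 in the Abelson line (78.7%), above the 45.5% and 48.2% of all genes, and for 42 in both. All 12 further inhibitors and ubiquitin enzymes were marked in both lines, as the 5 inhibitor and cofactor genes above were. Of the 9 genes in the kinase group, 8 were marked in Scid.adh.2C2 and 9 in the Abelson line. Of the 15 in the adaptor group the numbers were 13 and 12, and of the 16 targets 10 and 11. The kinase group also holds Ikbkg, Tab1, Tab2 and Tab3, which encode regulatory or binding partners of kinases. The adaptor group holds the kinase genes Irak1, Irak4 and Ripk1. Receptors were marked least, 1 of 9 in Scid.adh.2C2 (Tnfrsf1b, a TNF receptor) and 4 of 9 in the Abelson line.

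Of the 61 pathway genes, 6 were marked solely in the Abelson line (9.84%, against 5.97% of all genes) and 2 solely in Scid.adh.2C2 (3.28%, the same share as of all genes). Of the former, Tnfrsf13c, the BAFF receptor of B cells, was 28.3-fold enriched (percentile 88.8), Tlr4, the receptor for bacterial lipopolysaccharide, 17.7-fold, and Cd40, the receptor for T-cell help, 15.9-fold. Map3k8, a kinase that is bound by p105, was 30.9-fold enriched (percentile 95.8). Among the targets, the lymphotoxin gene Lta was 39.1-fold enriched and the adhesion molecule gene Icam1 17.2-fold. Of the latter, Il2ra, the interleukin-2 receptor α chain, was 21.8-fold enriched (percentile 25.6) and Birc3, a ubiquitin ligase of the TNF receptor complex, 17.7-fold (percentile 13.2).

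The highest promoter peaks of the pathway list in Scid.adh.2C2 were those of Irak4 (37.6-fold), a kinase of Toll-like receptor signalling, Bcl10 (37.2-fold), an adaptor of antigen receptor signalling, and Rbck1 (35.7-fold), a part of the linear ubiquitin ligase. In the Abelson line they were those of Tnf and Lta, neighbouring genes that share the peak of 39.1-fold, and Sharpin (32.7-fold), also of the linear ubiquitin ligase. Tnf stood at percentile 3.12 in Scid.adh.2C2 (10.4-fold) and at 99.9 in the Abelson line. Of the 42 pathway genes marked in both lines, the covered length was at least 1.5 times longer in the Abelson line for 13 (31.0%, against 15% of all genes) and in Scid.adh.2C2 for 1 (2.38%, against 3.05%). Their median percentile in Scid.adh.2C2 was 47.6, against 50.9 for the Abelson line. The rank shift of the 10 core genes was thus not seen in the median of the whole pathway list. In that list 9 genes were at least 25 points higher in the Abelson line (21.4%, against 22.8% of all genes) and 7 in Scid.adh.2C2 (16.7%, against 21.3%), both at or under the background. The parts of the list differed, among genes marked in both lines. Medians went from 50.5 in Scid.adh.2C2 to 73.7 in the Abelson line for the kinase group and from 19.5 to 45.7 for targets. They went from 54.6 to 43.8 for the adaptor group and from 49.9 to 43.8 for further inhibitors and ubiquitin enzymes. These medians hold for the groups as listed, not for kinases or adaptors as classes. For the 1 receptor the percentile went from 10.2 to 18.0.

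**Figure D4:**
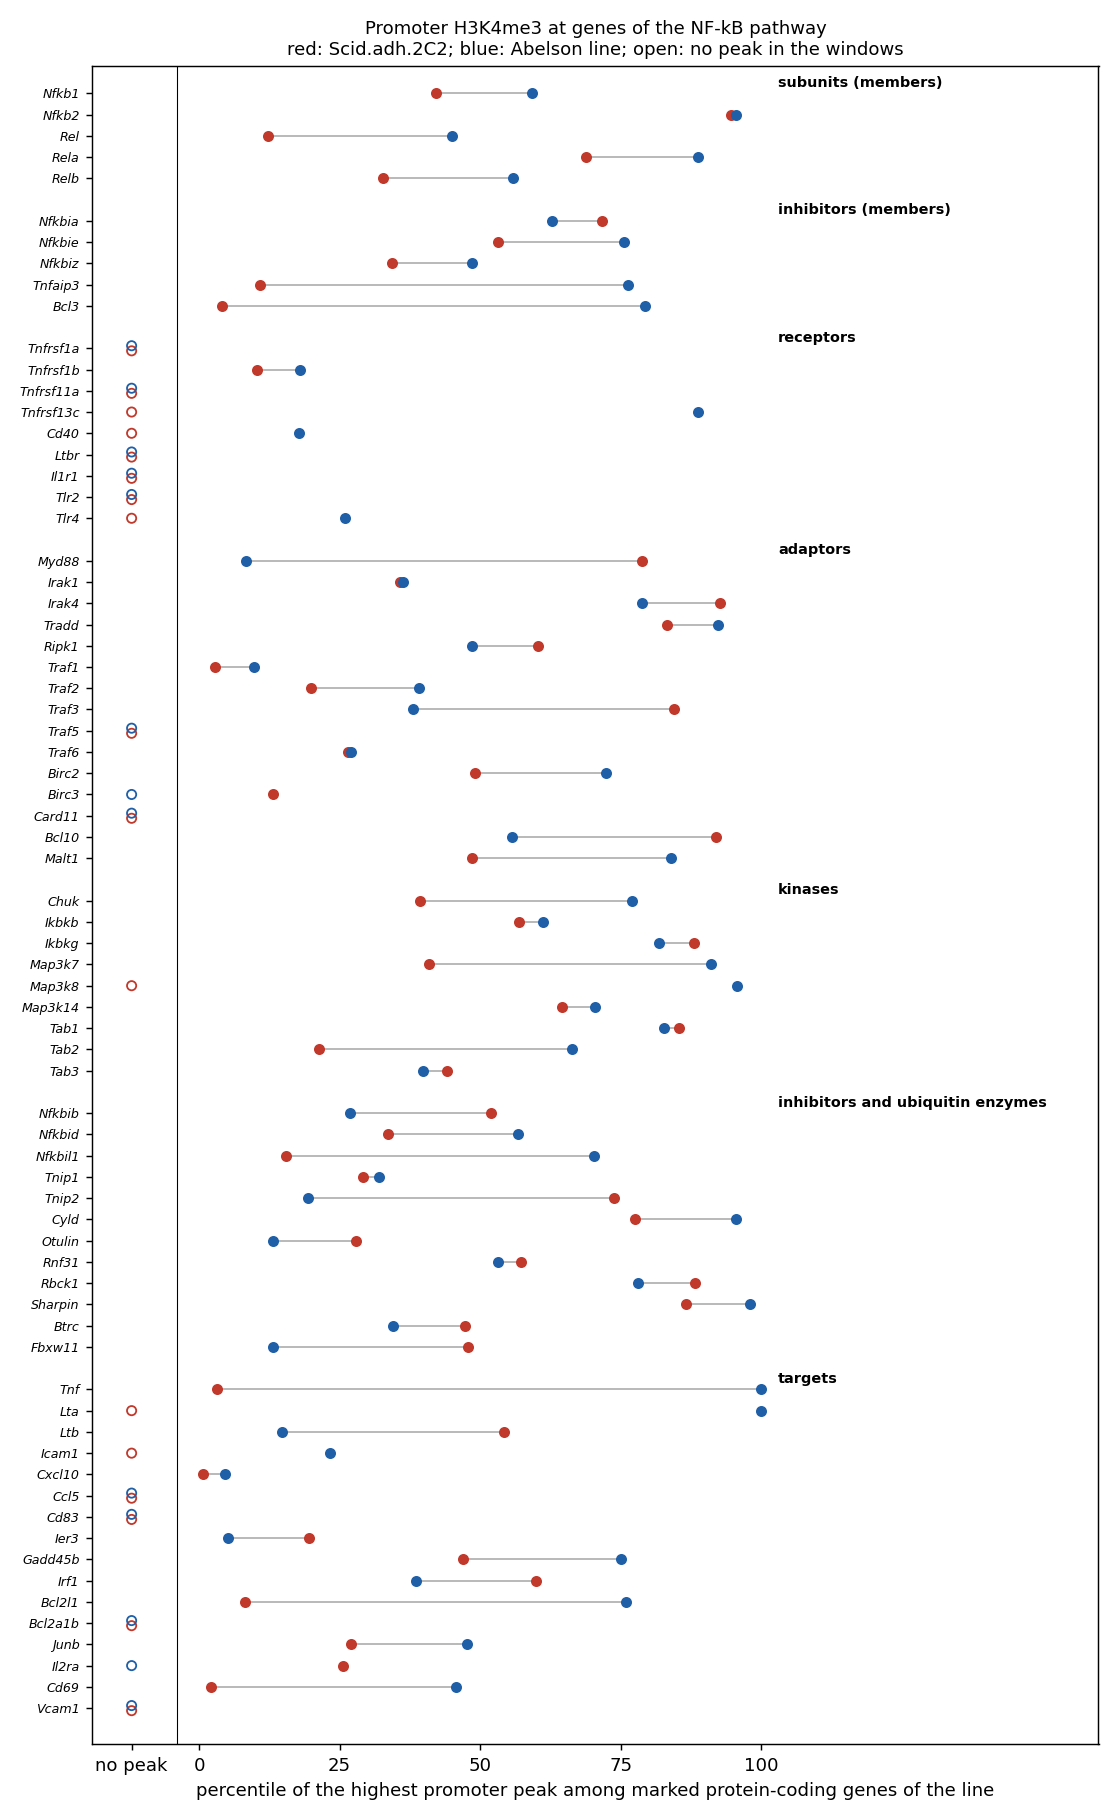
Percentile of the highest promoter peak (x axis) in Scid.adh.2C2 (red) and the Abelson line (blue) for the 10 genes and the 61 further genes of the pathway list, 1 line per gene, with open circles at the left where no peak lay in the windows. The 10 genes have no open circle, whereas 5 of 9 receptors have 2 and Tnf and Lta reach 99.9 in the Abelson line.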

How the data were processed

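H3K4me3 ChIP-seq of Scid.adh.2C2 and the Abelson line was used as 1 deposited peak list per line. Per the study's methods, the authors trimmed reads (Trim Galore 0.6.7), mapped them to mm10 (GRCm38; Bowtie2 2.4.4), called narrow peaks with MACS2 2.2.7.1 at q 0.05 against the line's input and kept the optimal set by the irreproducible discovery rate (IDR). The IDR score, the fold enrichment (a ratio over background), the −log10 p and the −log10 q are the authors' values and were used as deposited. Merging of replicates removes their spread, and fold and peak length move with depth and input, so that heights were ranked within a list. All peaks lay inside the GRCm38 chromosomes. Which list belongs to which line follows from the lists' names, with the study's dataset table for Scid.adh.2C2.

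A gene was marked where a peak overlapped by at least 1 bp the 2500 bp either side of any GENCODE vM21 TSS. Ties in a percentile counted by their middle rank. The kB consensus was searched on both strands of the RefSeq windows. No test was run. Named were the 10 genes, pathway genes marked in 1 line only, the 3 highest pathway peaks per line, and genes sharing a member's peak. The members and lists were chosen with earlier results of these data known. Alternative windows, peak filters, TSS sets and measures were tried. In a check, simulated peaks were placed at some of 3690 isolated promoters with a single TSS. The covered length came back right for 100% of the 3690, those without a peak included. Genes with several TSSs or peaks were not part of it. Python 3.11.15, numpy 2.4.6, pandas 2.3.3, statsmodels 0.14.6 and matplotlib 3.10.9 were used.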

Additional observations from a re-analysis of the deposited data

How the results depend on the processing

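Of the main counts and medians recomputed under an alternative, 97 stayed within set limits and 18 moved. The limit was 1.5 times for counts. For the median percentiles it was a 95% interval that treats the percentile as a share of all marked genes. That interval is not the spread of a median over 10 genes. The median percentile of the 10 genes in Scid.adh.2C2 was 36.3 with peaks of at least 10-fold enrichment, 42.2 with the most upstream TSS only and 41.9 with TSSs of protein-coding transcripts only. In the Abelson line it was 68.1, 63.1 and 61.0 under the same settings, 63.3 with scores of 1000 only and 66.9 by −log10 q. Genes marked in 1 line only numbered 1 with scores of 1000 (Nfkb2), 2 with the most upstream TSS (Bcl3 and Nfkbiz) and 1 with TSSs of protein-coding transcripts (Bcl3). Over all protein-coding genes, scores of 1000 left 9756 marked in Scid.adh.2C2, 10402 in the Abelson line and 8976 in both. The numbers were 9397, 9945 and 8725 with the most upstream TSS, and 9765, 10343 and 9078 with TSSs of protein-coding transcripts. By the width of the highest peak, 1 gene (Nfkbia) was longer in Scid.adh.2C2, against 8.65% of all genes. With a threshold of 10 percentile points, chosen after the values were seen, 8 genes were higher in the Abelson line, against 37.0% of all genes. With 50 points there were 2, against 8.36%, and with 25 points by −log10 q there were 4, against 17.0%. For the count of genes with more peaks outside promoters in the Abelson line, the settings were also chosen after the peaks were seen. That count was 4 instead of 7 with a flank of 20000 bp, against 19.2% of all genes. It was also 4 with peaks of at least 10-fold enrichment, against 17.5%, and with equal numbers of peaks, against 16.8%. The share over all genes was 29.3% in the main setting. For Scid.adh.2C2 the count was 2 with windows of 1000 bp, against 14.2%, and 0 with 5000 bp, against 8.35%. The cause of these shifts was not tested beyond the change of peaks or TSSs counted. No paired analysis was possible because each list combines both replicates of a line, and for the same reason no replicate could be left out. The unknown depth limits every absence of a peak to a statement about the authors' thresholds.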
